A study of Homo sapiens with 4 samples.

Results

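The 12S rRNA, encoded by MT-RNR1, is the RNA of the small subunit of the mitochondrial ribosome. Its positions were taken as every position that the deposited table lists under the mitochondrial interval from nt 648 to 1601, which gave 954 of 15984 listed positions. The interval is the rRNA gene RNR1 of the RefSeq gene table (GRCh38.p14), which lies on MT between the tRNA genes TRNF (577 to 647) and TRNV (1602 to 1670), with the large subunit gene RNR2 (1671 to 3229) after them. Positions below are counted from the first nucleotide of 12S, unless MT is named. HEK293T cells, a human embryonic kidney line with the SV40 large T antigen, stably overexpressed Flag-tagged SIRT7 in all 4 libraries, at passages 10 to 15. SIRT7 is a mainly nucleolar NAD-dependent deacylase, and the RNA bound to anti-Flag beads was sequenced from a cytosolic fraction (2 libraries) and a nuclear fraction (2 libraries) of the lysate. No library without the tagged protein and no input RNA was analysed here, so values are recovered RNA, and the fractions were checked here by no marker of purity. Nothing says that the libraries came from separate cultures, so p-values here measure only how far these libraries spread, and that spread may be technical.

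Mitochondrial rRNA is transcribed inside mitochondria as part of a polycistronic RNA, in which tRNAs flank the rRNAs and are cut out to release them. The 12S rRNA then assembles with mitochondrial ribosomal proteins to form the small subunit, which reads mRNA at a decoding site built from helix 44 and the loop of helix 18. A few nucleotides are modified on the way, among them a 5-methyluridine in the loop of helix 24, a 4-methylcytidine and a 5-methylcytidine in the 5' strand of helix 44, and a pair of dimethyladenosines in the loop of helix 45. The cytosolic counterpart of 12S is the nuclear-encoded 18S rRNA, which holds the same helices in a longer molecule.

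The sequences that carry the results are shown 5' to 3' as the table gives them, in DNA letters, with each conserved element in capitals. They are the 3' end of 12S with the 3' strand of helix 44 and the loop of helix 45, where depth fell in steps, the 5' strand of helix 44 and the strand ahead of helix 28 in 12S, where the fractions differed in opposite directions, and the 18S counterparts of 2 of these elements.
12S, nt 895 to 954 (MT 1542 to 1601): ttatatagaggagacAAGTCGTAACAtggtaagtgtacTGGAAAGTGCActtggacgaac
12S helix 44 5' strand, nt 819 to 854 (MT 1466 to 1501): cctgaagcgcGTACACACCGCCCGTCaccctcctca
12S helix 28 strand, nt 504 to 534 (MT 1151 to 1181): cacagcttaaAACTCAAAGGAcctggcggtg
18S helix 44 5' strand, nt 1683 to 1718 of 18S: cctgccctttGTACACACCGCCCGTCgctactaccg
18S helix 45 loop, nt 1834 to 1866 of 18S: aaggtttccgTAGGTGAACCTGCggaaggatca
All 16 bases of the helix 44 5' strand are the same in 12S and 18S, as are all 11 of the 3' strand. The helix 28 strand shares 10 of 11 bases, the helix 18 loop 16 of 19 and the helix 24 loop 10 of 13.

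Depth is the number of reads that cover a position, not scaled between libraries, and one read counts at every base it covers. Summed over all listed positions it was 3021350782 to 3384088983 per library. The cytosolic libraries covered 12S with a mean of 623.5 and 817.5 reads, the nuclear libraries with 46355 and 37803. Both nuclear libraries were thus far above both cytosolic libraries at nearly equal totals. The share of the summed depth that lay in 12S was 0.0179% and 0.0247% in the cytosol against 1.31% and 1.19% in the nucleus, or 0.0213% ± 0.00479 and 1.25% ± 0.0800 (SD, n = 2; exact permutation p = 0.33, two-sided, the smallest that 2 libraries against 2 allow). In a limma fit over 10 rRNA regions, 12S was 59.4-fold higher in the nucleus (95% interval 40.3 to 87.6, adjusted p = 2.7e-05). Of the 10 regions, 4 passed as higher in the nucleus (40%). The mitochondrial 16S had the larger change in this fit, 136.3-fold (95% interval 88.2 to 210.7), so neither the call nor its size was particular to 12S. Reads from copies of mitochondrial DNA in the nuclear genome could not be told apart from 12S reads in such a table.

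Against its cytosolic counterpart, 12S stood at 0.139% and 0.176% of the mean depth of 18S in the cytosolic libraries, but at 7.60% and 6.77% in the nuclear ones. This ratio needs no scaling between libraries. On the log2 scale it was -9.32 ± 0.24 in the cytosol against -3.80 ± 0.12 in the nucleus (SD, n = 2), a difference of 5.52 (exact permutation p = 0.33). The small subunit rRNAs of the cytosolic and the mitochondrial ribosome were therefore recovered in different proportions in the fractions, by far more than the libraries of a fraction differed. Against 16S, the large subunit rRNA, 12S was the deeper in every library, by 3.94 and 3.89 on the log2 scale in the cytosol against 2.67 and 2.77 in the nucleus.

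**Figure D1:**
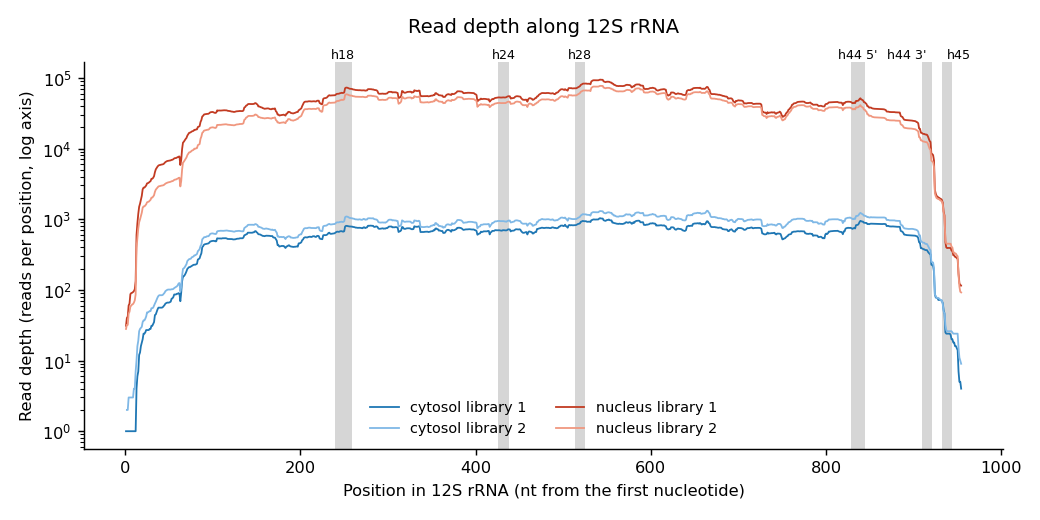
Read depth (log axis, reads per position) against position in 12S for each of the 4 libraries, with the conserved elements in grey. The nuclear libraries lie above the cytosolic ones along the whole molecule, and all 4 fall off at both ends. A position at 0 is not drawn.

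The higher nuclear depth ran the full length of 12S. Relative to the mean depth of the library over all positions, both nuclear values exceeded both cytosolic values at all 954 positions, against 44% of the 15984 listed positions. Over windows of 100 nt, all 10 windows of 12S were higher in the nucleus in a limma fit across 137 windows of the table, of which 40.1% were called higher and 21.2% lower. The median log2 difference was 5.81 in 12S and 0.16 over all windows. All 16 windows of 16S were higher as well, with a median of 6.77. The adjusted limma p of the 12S windows was 8.5e-50 to 1.4e-32. These p-values are too small to be read as the evidence of 4 libraries, because the fit pooled the spread of all windows while the windows of a library rise and fall together. With no trend, and the variance of each window drawn toward a common value, the limma fit gave 8e-05 to 2.7e-04. That fit still borrows spread across windows.

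The ratio between the fractions was not even along the molecule. The largest was at nt 501 to 600, which holds the strand ahead of helix 28. Mean depth there was 901.6 and 1152 reads in the cytosol against 79471 and 65943 in the nucleus. The ratio of relative depths was 71.2, with a log2 difference of 6.17 (95% interval 5.52 to 6.81). The smallest was at the 3' end, nt 901 to 954, with 187.6 and 225.1 reads in the cytosol against 7415 and 5844 in the nucleus, a ratio of 32.3 and a log2 difference of 5.01 (95% interval 4.29 to 5.72). Of single positions outside the first and last 50 nt, nt 538 had the largest ratio, 75.1, and nt 868 the smallest, 32.6. G+C content of the windows lay between 38% and 50%. Its correlation with the log2 difference was -0.02 over the 10 windows, which share libraries and neighbouring reads, and is given as a description.

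To compare the shape of 12S apart from its level, depth was divided by the mean depth of 12S in the same library. The profiles of libraries of one fraction were close, with a correlation over 954 positions of 0.987 between the cytosolic pair and 0.992 between the nuclear pair, against 0.892 to 0.901 between fractions. Neighbouring positions share reads, so these are descriptions. In the nucleus more of the depth of 12S lay in its middle and less toward its 3' end. The middle 318 nt held 41.4% and 40.6% in the cytosol against 46.6% and 47.5% in the nucleus. The last 318 nt held 33.7% and 34.8% in the cytosol against 27.4% and 28.5% in the nucleus. The first 318 nt did not separate the fractions, with 24.8% and 24.6% against 26.1% and 24%.

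**Figure D2:**
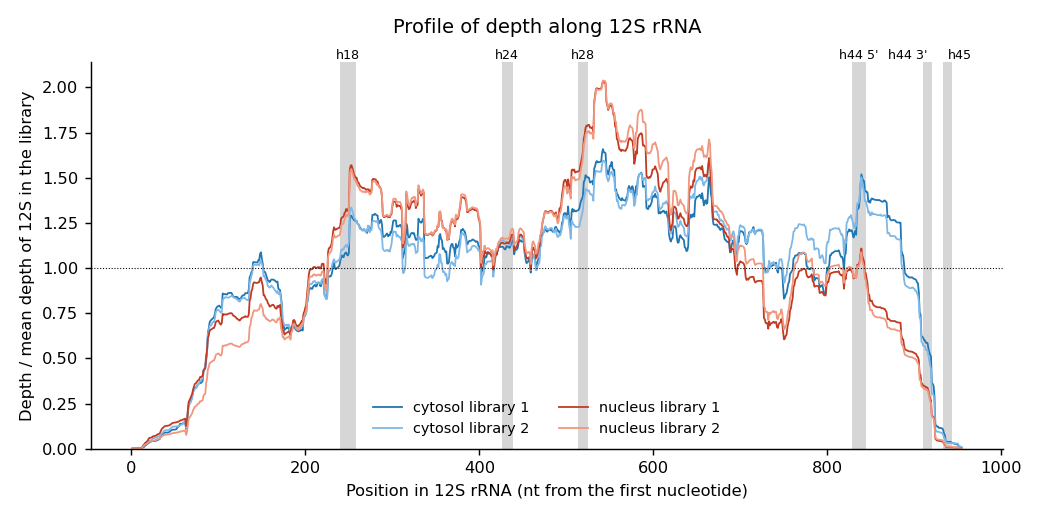
Depth divided by the mean depth of 12S in the same library, against position in 12S, for the 4 libraries; the dotted line is the mean. The highest point is nt 542 in the mean of each fraction, at 2.04 in both nuclear libraries but 1.66 and 1.60 in the cytosolic ones, while over the last 100 nt both nuclear profiles lie below both cytosolic ones.

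The summit of the mean profile was at the same place in both fractions. Outside the end 50 nt, the mean profile of each fraction was highest at nt 542 (MT 1189), with 1034 and 1304 reads in the cytosol against 94361 and 77056 in the nucleus. It was also the deepest position of 3 single libraries, while in cytosolic replicate 2 nt 664 was slightly deeper, with 1317 reads. The mean profiles were lowest at nt 63 (MT 710), with 69 and 95 reads in the cytosol against 5831 and 2906 in the nucleus. Depth varied along 12S by an SD of 39.3% of the mean in either cytosolic library and of 47.2% and 50.2% in the nuclear ones. The nuclear profile was therefore the more uneven, with a higher summit. In 16S this SD was 43.6% and 56.4% in the cytosol against 70.3% and 78.1% in the nucleus. In 18S it was 47.1% and 47.6% against 54.7% and 55.8%, so the more uneven nuclear profile was not particular to 12S.

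In a limma fit of this profile over the windows of all regions, 2 of 10 windows of 12S were higher in the nucleus and 2 lower, against 11.7% and 19% of the 137 windows. Values of the fractions did not overlap in 9 of 10 windows of 12S and in 78.8% of all windows, so this was not particular to 12S. It is a weak mark with 2 libraries against 2, where it has an exact permutation p of 0.33. The 2 windows of 5.8S also did not overlap, at log2 differences of only -0.011 and 0.013. The 12S windows that rose were nt 201 to 300, with the helix 18 loop, and nt 501 to 600. At nt 501 to 600 the profile was 1.45 and 1.41 in the cytosol against 1.71 and 1.74 in the nucleus, a log2 difference of 0.28 with SE 0.04 (limma, adjusted p = 0.0249). At nt 201 to 300 it was 1.09 in both cytosolic libraries against 1.26 and 1.24 in the nuclear ones, a log2 difference of 0.20 (adjusted p = 0.0450 in limma).

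The windows that fell lay at the 3' end. At nt 801 to 900, which holds the 5' strand of helix 44, the profile was 1.21 and 1.20 in the cytosol against 0.827 and 0.809 in the nucleus, a log2 difference of -0.56 with SE 0.05 (limma, adjusted p = 0.0155). At nt 901 to 954, which holds the 3' strand and helix 45, it was 0.301 and 0.275 in the cytosol against 0.160 and 0.155 in the nucleus, a log2 difference of -0.88 with SE 0.10 (limma, adjusted p = 0.0194). The window before them, nt 701 to 800, had -0.27 and did not pass (adjusted p = 0.0753 in limma). These calls rest on few degrees of freedom. Without any 1 library, 0 windows stayed higher and 0 or 1 lower (3 to 5 at an unadjusted limma p under 0.05), with the direction kept at all 4 windows.

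**Figure D3:**
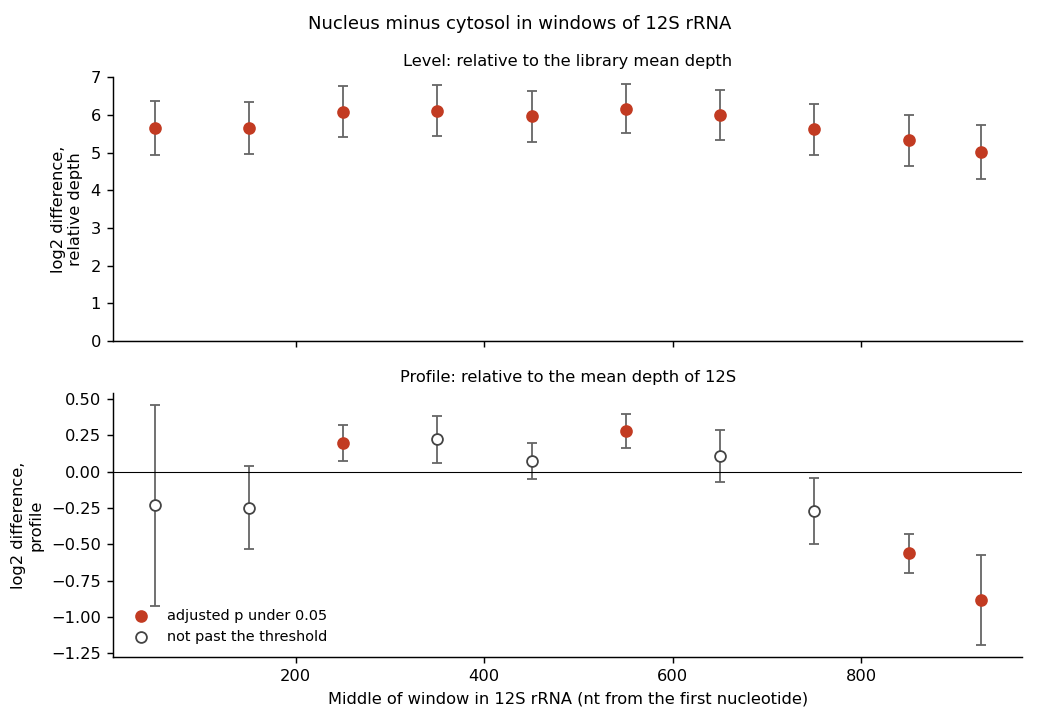
Difference between nucleus and cytosol (log2, with 95% intervals of the limma fit) in the 10 windows of 12S, for the level (top) and for the profile (bottom). Filled points passed the adjusted threshold of 0.05. All windows lie between 5.01 and 6.17 at the top, while the profile is above 0 in the windows from nt 201 to 700 and below 0 at either end.

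The balance of the ends moved less than this. Mean depth of the last 318 nt over that of the first 318 nt was 0.44 and 0.50 on the log2 scale in the cytosol against 0.07 and 0.25 in the nucleus, a difference of -0.31 (exact permutation p = 0.33). Taken over medians it was -0.044, below the spread between libraries. In 16S the same ratio moved the other way, from 0.50 and 0.999 in the cytosol to 1.51 and 1.64 in the nucleus. The gap between 12S and 16S in this ratio was -0.28 ± 0.31 in the cytosol against -1.41 ± 0.04 in the nucleus (SD, n = 2; exact permutation p = 0.33), with no overlap between the fractions.

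The conserved elements of the decoding region and of the subunit's centre had different places in the profile. The helix 18 loop (nt 240 to 258), part of the decoding site, stood at 1.15 and 1.19 times the 12S mean in the cytosol against 1.40 and 1.37 in the nucleus. The strand ahead of helix 28 (nt 514 to 524), which lies between the domains of the subunit, stood at 1.42 and 1.34 against 1.66 and 1.63. Both were higher in the nucleus with no overlap. The helix 24 loop (nt 426 to 438), which faces the large subunit, stood at 1.12 and 1.15 against 1.15 and 1.18, a log2 difference of 0.04, with the lower nuclear value only just above the higher cytosolic one.

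The strands of helix 44 were lower in the nuclear profile. The 5' strand (nt 829 to 844) stood at 1.35 and 1.36 times the 12S mean in the cytosol against 1.01 and 0.996 in the nucleus, a log2 difference of -0.43. The 3' strand (nt 910 to 920), which carries the adenosines that inspect the codon, stood at 0.551 and 0.506 in the cytosol against 0.310 and 0.297 in the nucleus, a log2 difference of -0.80. The helix 45 loop (nt 933 to 943) was the shallowest element, at 31.9 and 34.0 reads in the cytosol against 665.5 and 685.3 in the nucleus, which is 0.0512 and 0.0416 of the mean against 0.0144 and 0.0181. Each of the 6 elements had an exact permutation p of 0.33 and the same value after adjustment over the 6, the smallest this design allows.

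The same elements of 18S, relative to the mean of 18S, gave both like and unlike values. The helix 18 loop stood at 1.20 and 1.17 in the cytosol against 1.29 and 1.33 in the nucleus, near its values in 12S. The 5' strand of helix 44, identical in sequence, went the other way in 18S, from 0.626 and 0.728 in the cytosol to 0.899 and 0.966 in the nucleus. The log2 ratio of 12S over 18S at this element was 1.11 and 0.90 in the cytosol against 0.17 and 0.04 in the nucleus, a difference of -0.90 with no overlap (exact permutation p = 0.33). At the 3' strand of helix 44 both rRNAs had lower nuclear values, 0.418 and 0.455 in 18S after 0.710 and 0.646 in the cytosol. The helix 45 loop was lower in the nucleus in both as well, with a log2 difference of -1.31 in 18S and -1.52 in 12S. The helix 28 strand was higher in both, by 0.22 in 18S and 0.25 in 12S. The helix 24 loop was higher in both, by 0.16 in 18S but by only 0.04 in 12S. Apart from the 5' strand of helix 44, every element thus had the same direction in both rRNAs, though not always the same size.

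**Figure D4:**
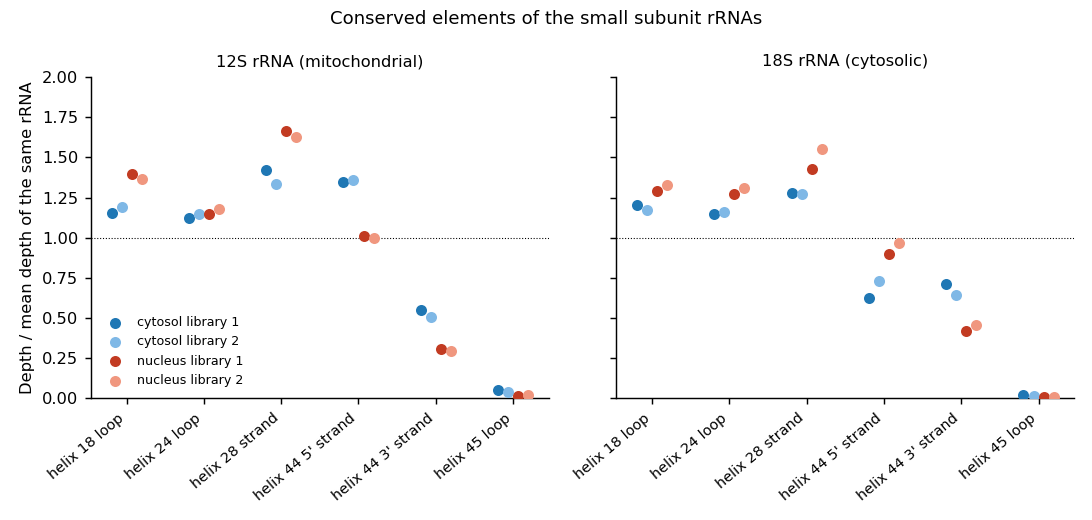
Depth at 6 conserved elements divided by the mean depth of the same rRNA, in 12S (left) and 18S (right), 1 point per library. The 5' strand of helix 44 is lower in the nucleus in 12S and higher in the nucleus in 18S, and the helix 45 loop is near 0 in both.

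Depth changed in sharp steps near the ends of 12S. Outside the first and last 20 nt, the largest fall between neighbouring stretches of 10 nt was at nt 924 (MT 1571), just after the 3' strand of helix 44. Mean depth dropped there from 290.4 to 74.0 and from 339.6 to 75.2 reads in the cytosol, against from 11703 to 2061 and from 9168 to 1929 in the nucleus, a log2 step of -1.97 and -2.18 in the cytosol against -2.51 and -2.25 in the nucleus. The next falls at least 25 nt apart, at nt 727 and nt 886, were far smaller, with mean log2 steps of -0.34 and -0.32. This ranking could not list the fall at nt 936 given below, which lies in the last 20 nt. The fall at nt 727 was steeper in the nucleus, by -0.41 and -0.43 against -0.26 and -0.27 in the cytosol. At nt 759 depth came back up by 0.45 in both nuclear libraries but only 0.24 and 0.27 in the cytosolic ones, which bounds a dip that was deeper in the nuclear profile.

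Base by base, the 2 largest falls among 850 positions from nt 101 on were at nt 924 and nt 936. These single-base values, and those of 18S below, were chosen after the profile had been seen. At nt 924, a T in the stretch tggtaagtgtac between helices 44 and 45, 47.5% and 42.4% of the depth of the base before was kept in the cytosol against 38.1% and 42.4% in the nucleus. At nt 936 depth went from 46 to 25 and from 47 to 32 reads in the cytosol, against from 1125 to 474 and from 1082 to 502 in the nucleus. Nuclear libraries kept 42.1% and 46.4% of the depth there. Nucleotide 936 is the first of the adenosines at nt 936 and 937 (MT 1583 and 1584) that the enzyme TFB1M is known to dimethylate. At nt 937 depth fell less, to 24 and 27 reads in the cytosol against 399 and 454 in the nucleus. From there it was nearly flat to nt 942, where it stood at 23 and 26 reads in the cytosol against 391 and 449 in the nucleus.

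The corresponding place in 18S had a still sharper fall. Within the last 60 nt of 18S the largest single-base fall was at nt 1850, the first of the adenosines that the related enzyme DIMT1 dimethylates. Depth went from 8266 to 1221 and from 7568 to 1222 reads in the cytosol against from 4145 to 630 and from 3752 to 740 in the nucleus, so that 14.8% and 16.1%, and 15.2% and 19.7%, were kept. Both small subunit rRNAs thus lost depth at the first dimethylated adenosine in all 4 libraries. Depth says nothing of modification itself, and a link between the fall and the modified base was not tested.

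**Figure D5:**
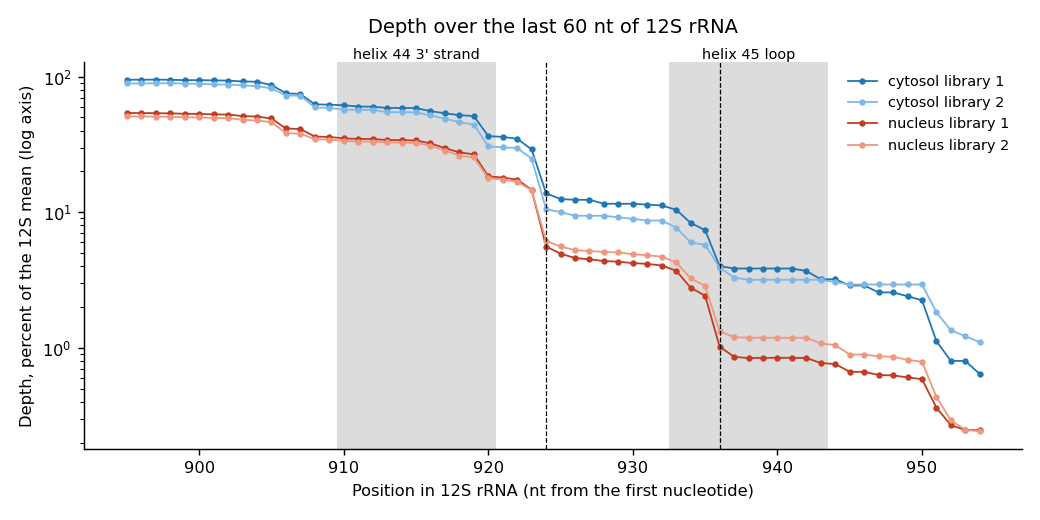
Depth over the last 60 nt of 12S as percent of the mean of 12S in each library (log axis), with the 3' strand of helix 44 and the helix 45 loop in grey. Dashed lines mark nt 924 and nt 936, where all 4 libraries step down, and the nuclear libraries lie below the cytosolic ones throughout.

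Around the other modified nucleotides depth changed far less than at nt 936. At nt 429 (MT 1076), where TRMT2B forms 5-methyluridine, depth was 689 and 938 reads in the cytosol against 52638 and 43928 in the nucleus, and the 10 nt before were 0.966 to 0.986 times as deep as the 10 nt after. At nt 839 (MT 1486), the 4-methylcytidine made by METTL15, depth was 947 and 1228 reads in the cytosol against 51390 and 41114 in the nucleus, and the 10 nt before were 0.894 and 0.960 times as deep as the 10 nt after in the cytosol but 1.05 and 1.09 times in the nucleus. At nt 841 (MT 1488), the 5-methylcytidine made by NSUN4, the 10 nt before were 0.955 and 1.02 times as deep as the 10 nt after in the cytosol against 1.13 and 1.18 times in the nucleus. At the dimethyladenosine of nt 936 this ratio was 3.08 and 2.66 in the cytosol against 4.92 and 4.11 in the nucleus. But nt 936 lies where depth runs down toward the 3' end, and the 10 nt before it include a separate fall at nt 934. The other modified nucleotides lie farther inside, so modified base and place in the molecule cannot be told apart here. The larger single-base fall at nt 924 was at none of these nucleotides.

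The 5' end rose in steps of its own, over a sequence that starts next to TRNF.
12S, nt 1 to 60 (MT 648 to 707): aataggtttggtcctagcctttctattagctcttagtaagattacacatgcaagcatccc
The first nucleotide had 1 and 0 reads in the cytosol against 31 and 28 in the nucleus. At nt 13 nuclear depth went from 133 to 596 and from 86 to 393 reads in a single base, while the cytosolic libraries had at most 10 reads there. Rises over stretches of 10 nt were ranked outside the first and last 20 nt, at least 25 nt apart. The largest were at nt 21, nt 66 and nt 91, with mean log2 steps of 1.28, 1.03 and 0.49. At nt 66 each library rose by 0.97 to 1.05. The first position ranked was nt 21, so rises nearer the 5' end, as at nt 13, were left out. The steps at nt 21 and nt 66 thus did not separate the fractions. Depth first reached 50% of the 12S mean at nt 87 and 86 in the cytosol against at nt 86 and 97 in the nucleus.

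The last bases were covered less in the nuclear libraries relative to their own mean. The first 50 nt had 4.65% and 5.67% of the mean depth of 12S in the cytosol against 6.82% and 4.36% in the nucleus, and the fractions overlapped (exact permutation p = 1). The last 50 nt had 25.1% and 22.8% in the cytosol against 13.1% and 12.8% in the nucleus, with no overlap (exact permutation p = 0.33). Depth was last at 50% of the mean at nt 919 and 916 in the cytosol against at nt 904 and 899 in the nucleus. At the final nucleotide, nt 954, it was 4 and 9 reads in the cytosol against 115 and 92 in the nucleus, so the cytosolic profile of the ends rests on few reads.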

How the data were processed

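The authors deposited one signal track as a table: the coverage, or depth of reads, at each position of rRNA reference sequences, as whole numbers that were not scaled, per the file headers and the values. The tools named in the submitters' processing notes are cutadapt 1.5, Bowtie2 2.2.6 and SAMtools, with settings, read filters and strand use not given in the sources used here. Directional libraries were made, per the labels' protocols. Precursor regions were placed by terminal sequences, and windows of 100 nt were cut within each region, the last one taking in any rest shorter than 50 nt. The 137 windows whose mean depth reached 10 in 2 or more libraries were tested with limma 3.58.1 in R 4.3.3 (variance trend) on log2(depth relative to the library mean + 0.00001), nucleus minus cytosol, with Benjamini-Hochberg adjustment at 0.05. Regions were fitted without trend or pseudocount. The profile fit also divided by the region's mean. Ratios and elements used two-sided exact permutation tests (scipy 1.17.1). Elements and modified nucleotides were placed by sequence. The labels tie no replicate number to a shared culture or day, so the numbers were not taken as pairs; deviations of same-numbered libraries correlated at 0.016 over 137 windows and at 0.126 over the 10 windows of 12S. On simulated data of 137 windows, the level fit recovered 44%, 78% and 95.5% of windows changed by 0.5, 1 and 2 (log2), and the profile fit 53.5%, 77.5% and 93.5%, with 0.89% and 1.26% false calls; noise was independent between windows. Members, lists and tests were chosen with earlier results of these data known. The text names the windows at either extreme or past the profile test, extreme positions, 6 elements and their modified bases. It also names the 3 largest rises and falls over 10 nt, at least 25 nt apart and outside the first and last 20 nt.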

Additional observations from a re-analysis of the deposited data

How the results depend on the processing

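The higher level of 12S kept its direction and call in every alternative run: as a region, between 5.66 and 6.12 on the log2 scale, and in all 10 windows (19 of 19 with 50 nt windows). With a pseudocount of 0.01 the window differences shrank to between 1.96 and 4.63, because that value exceeds the cytosolic depth. Over the whole table, 185 of 264 windows of 50 nt were called higher or lower in the level fit. The shape calls were less stable. In place of 2 higher and 2 lower profile windows there were 5 and 4 with a pseudocount of 0.01, 1 and 2 with the region median as centre, no minimum depth, no variance trend, window medians or 5S left out (an alternative chosen after seeing the data), 2 and 4 with 50 nt windows, and 0 and 1 with windows shifted by 50 nt. With the replicate block 0 and 0 were called (6 at an unadjusted limma p under 0.05). This loss was not particular to 12S. The block left 0 of 137 windows of the whole table called in the profile fit, against 16 higher and 26 lower in the main run. In the level fit it kept all 10 windows of 12S. It called 78 of 137 windows there, against 55 higher and 29 lower in the main run. Leaving out 1 library leaves 1 in a fraction. It ended most or all of the profile calls in 12S and most in the whole table. The cause was not tested. The profile at nt 1 to 100 turned from -0.23 to 0.044 without nuclear replicate 2 and was -0.51 without nuclear replicate 1. The difference of the last over the first part of 12S moved from -0.31 to -0.044 with medians and to -0.13 with the molecule cut in 2. The 12S over 18S difference was 5.52 in the main run and stayed between 5.35 and 5.69 in the alternatives. Cytosolic depth limits the ends of the profile.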
